A study of Mus musculus with 6 samples.

Results

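The glucocorticoid receptor gene, the gene of the liver enzyme that reactivates glucocorticoid hormone, and 7 genes that the hormone induces directly were followed through 6 mouse livers. The 9 genes (Nr3c1, Hsd11b1, Fkbp5, Tsc22d3, Sgk1, Zbtb16, Dusp1, Klf9 and Errfi1) were taken by symbol from a table of 17441 genes, and all 9 were among the 13160 genes with enough reads to be tested. RNA-seq was done on 3 livers labelled control (Ctrl, genotype WT) and 3 labelled iKO, a whole-body knockout of the kinase gene Nek7 that tamoxifen induces. Both groups were taken 10 days after tamoxifen, so both carry that agent. The labels name neither the Cre line that drives the deletion nor the sex, age, feeding state or hour of collection of the animals, and each liver has only a number within its group.

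Glucocorticoids, corticosterone in mice, enter hepatocytes and bind the glucocorticoid receptor, which chaperones of the HSP90 machine hold ready in the cytoplasm. The bound receptor moves to the nucleus and switches on genes of glucose production, amino acid breakdown, circadian timing and restraint of inflammation. Hormone output follows a daily rhythm and rises with fasting and stress.

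Library totals ran from 18139507 to 19911983 expected counts. Levels are given as CPM, read counts scaled to library size by TMM, a normalization that sets aside shifts caused by a few abundant genes. The library of iKO 1 stood apart, with a TMM factor of 0.780 against 0.990 to 1.18 in the other 5, and with 5.18% of its counts from albumin against 7.57% to 10.7%. Nek7 itself was at 55.5, 40.5 and 36.3 CPM in the Ctrl group, against 50.2, 32.8 and 31.0 CPM in the other group (log2 fold change -0.22 ± 0.23, SE; adjusted p = 0.541). The Nek7 count does not set the groups apart, so the second group is called "labelled iKO" here, and every direction below is between labels. These counts are for the whole gene, and RNA outside a deleted part may still be counted. They therefore cannot tell whether the gene was deleted or whether the labels are right. Ctrl 2 and Ctrl 3 gave 0 counts of the Y-linked genes Ddx3y and Kdm5d, while Ctrl 1 and the 3 livers labelled iKO gave 432 to 817 counts of Ddx3y. A fit with a term for these reads therefore compares Ctrl 1 alone with the livers labelled iKO. A call that ends in such a fit cannot be told apart from one lost with Ctrl 2 and Ctrl 3. Summed hepatocyte markers overlapped between groups (127050 to 144458 CPM in Ctrl, 135799 to 165691 CPM in those labelled iKO), and the tissue carried its defining genes. Nothing says that the livers of a group came from separate litters or cages, so p-values measure the spread between these samples.

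The induced genes that passed the test all rose, and the other induced genes did not pass it. Fkbp5, Zbtb16, Errfi1 and Klf9 rose in the livers labelled iKO, the receptor gene Nr3c1 fell, and Hsd11b1, Tsc22d3, Sgk1 and Dusp1 did not pass the test (edgeR quasi-likelihood F test, Benjamini-Hochberg adjusted p under 0.05 over all tested genes, called below). That is 5 of 9 genes called, where 15.4% of all tested genes were called. The 4 rises stand beside 7.31% of all genes called higher and the 1 fall beside 8.07% called lower. Over all tested genes 962 were called higher and 1062 lower, a split that became 421 and 931 on the log2(FPKM + 1) scale and 219 and 1058 on the log2(TPM + 1) scale. The median log2 fold change of the 9 genes was 0.86, and that of all tested genes was -0.02. The 9 genes and the lists below were chosen with earlier results of these data known, so such shares describe them and test nothing. In 6 of the 9 the values of the groups did not overlap, 5 higher and 1 lower, as in 39.0% of all tested genes (19.8% higher and 19.2% lower).

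**Figure D1:**
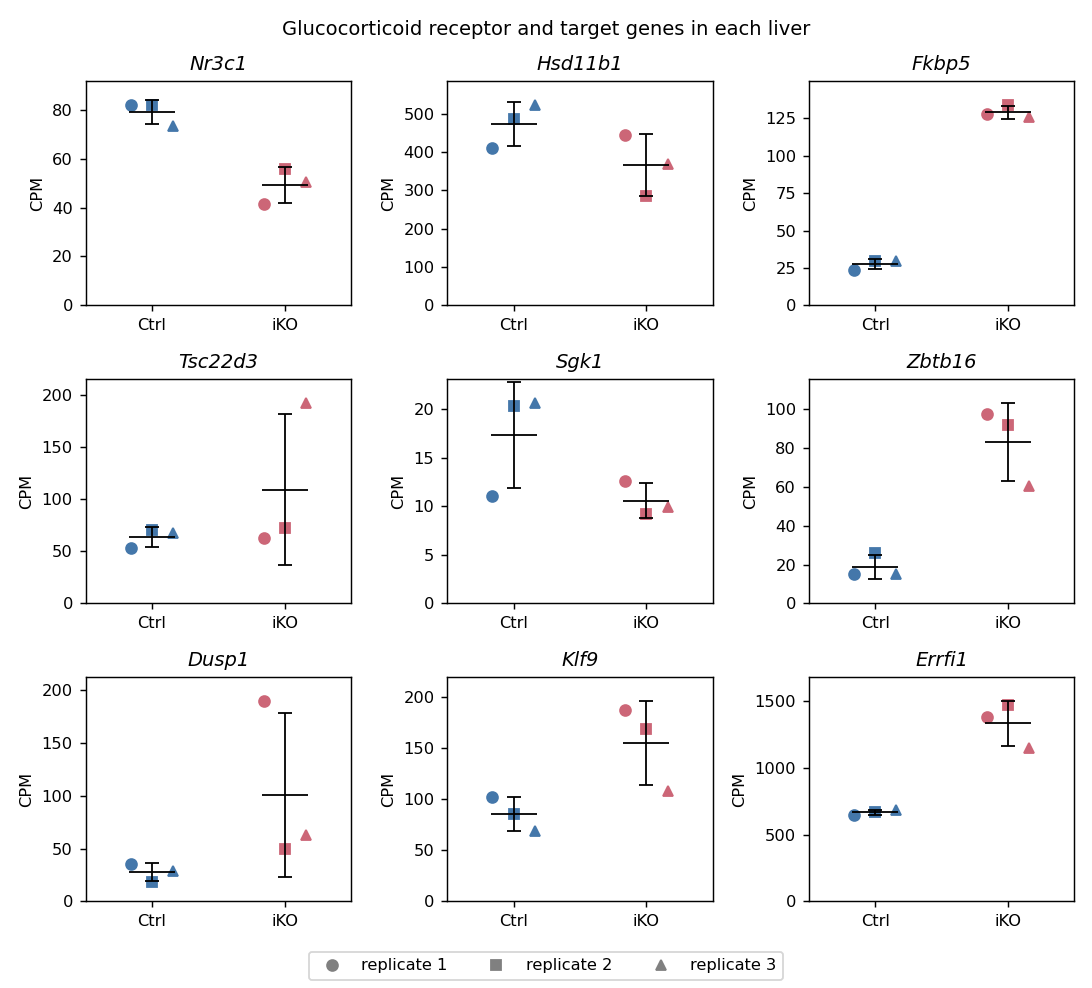
CPM (y axis, from 0) of the 9 genes in each liver; circles, squares and triangles are replicates 1, 2 and 3 of each group (blue Ctrl, red labelled iKO), which are not paired, and black lines give the mean and SD of 3 livers. Fkbp5 and Errfi1 separate widely with tight groups, while single livers carry the highest Tsc22d3 value (192 CPM, iKO 3) and the highest Dusp1 value (190 CPM, iKO 1).

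Nr3c1 (gene ID 14815) encodes the receptor itself. Levels in the Ctrl livers were 81.7, 81.8 and 73.5 CPM, and levels in those labelled iKO were 41.2, 55.7 and 50.4 CPM. Every liver labelled iKO lay below every Ctrl liver, and the lowest was iKO 1. The mean went from 79.0 ± 4.79 to 49.1 ± 7.32 CPM (SD, n = 3 each). It had a log2 fold change of -0.69 with a standard error of 0.17 (adjusted p = 0.0267), which puts Nr3c1 at 62.2% of Ctrl with a 95% interval of 48.0% to 80.6%. The call held without iKO 2 (adjusted p = 0.0409). It ended without Ctrl 1 (adjusted p = 0.0562), Ctrl 2 (0.131), Ctrl 3 (0.0550), iKO 1 (0.0522) or iKO 3 (0.0752), and after a correction for transcript length (log2 fold change -0.41, adjusted p = 0.0885). Nr3c1 is a long transcript, and expected counts were not whole in 4 libraries, so some of its reads may be shared with other genes.

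The receptor is made in every liver cell type, and markers of several minor cell types were also lower in the livers labelled iKO. Summed stellate cell and fibroblast markers were at 499 to 872 CPM in Ctrl and 255 to 331 CPM in those labelled iKO. Of these markers 7 of 12 were called lower, beside 8.07% of all tested genes. Kupffer cell and macrophage markers summed to 492 to 939 and 372 to 454 CPM (6 of 12 called lower), sinusoidal endothelial markers to 255 to 395 and 106 to 236 CPM (3 of 12), neutrophil markers to 37.3 to 138 and 24.4 to 54.6 CPM (5 of 12), and T, NK and B cell markers to 12.3 to 17.6 and 9.17 to 14.2 CPM (1 of 11). The T, NK and B cell count is near the share of all tested genes. The summed ranges of T, NK and B cell markers and of neutrophil markers overlapped between groups. Ctrl 1 was the lowest Ctrl liver in the summed stellate, Kupffer and endothelial markers, at 499, 492 and 255 CPM. Calls that held whichever liver was left out were Reln, Lrat, Ngfr, Dcn and Pdgfrb (stellate and fibroblast), Adgre1 (macrophage) and Mpo (neutrophil). Without Ctrl 2 every other Kupffer cell call and every endothelial call ended (adjusted p from 0.0605 for Timd4 to 0.163 for Cdh5). With a term for Y-linked reads, log2 fold changes of the called Kupffer cell markers ran from -1.33 (Adgre1) to -0.39 (Clec4f). Those of the called endothelial markers ran from -1.46 (Kdr) to -0.37 (Stab2), and of the stellate ones from -2.57 (Lrat) to -0.45 (Des). No marker of these lists was at 0 in all 6 libraries. In whole tissue, fewer cells of a type and less RNA per cell cannot be told apart, and the part of these cells in the Nr3c1 value was not tested.

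The mineralocorticoid receptor gene Nr3c2, the nearest relative of Nr3c1, whose product also binds corticosterone, fell by 1.05 log2 units (SE 0.19; adjusted p = 0.00960). Its values were 13.4, 10.4 and 10.9 CPM in Ctrl and 6.19, 5.58 and 4.98 CPM in those labelled iKO, and its call held whichever liver was left out. Scaled for length (TPM, length-scaled transcript abundance), Nr3c1 was 5.39, 6.96 and 5.95 times as abundant as Nr3c2 in the Ctrl livers and 5.98, 8.85 and 8.99 times in those labelled iKO. These ratios overlapped between the groups.

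Hsd11b1 (gene ID 15483) encodes 11-beta-hydroxysteroid dehydrogenase type 1, which in liver turns inactive 11-keto steroids back into active hormone. Ctrl livers 1 to 3 held 411, 486 and 522 CPM and those labelled iKO held 445, 285 and 370 CPM. The ranges overlapped, since iKO 1 lay above Ctrl 1. This gave a log2 fold change of -0.37 with a standard error of 0.23 (adjusted p = 0.283), and the 95% interval of the ratio ran from 54.6% to 110% of Ctrl. On the authors' TPM scale, where the median of all tested genes is itself -0.24, the value was -0.71 and was called (adjusted p = 0.0403). The 4 livers with Y-linked reads held 285 to 445 CPM and the other 2 held 486 and 522 CPM, so Hsd11b1 was lower in every liver with such reads; with a term for those reads the log2 fold change was -0.17 (adjusted p = 0.816).

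Genes around Hsd11b1 in hormone supply came next. H6pd, which supplies the NADPH for its reaction, was at 411 to 599 CPM in Ctrl and 396 to 692 CPM in the livers labelled iKO (adjusted p = 0.781). Serpina6, the corticosteroid-binding globulin that hepatocytes secrete, was at 173 to 362 and 185 to 359 CPM (adjusted p = 0.764). Akr1d1, a reductase that inactivates the hormone, was at 173 to 211 and 124 to 148 CPM with no overlap, and did not pass the test (adjusted p = 0.0908). Hsd11b2, the enzyme of the opposite reaction, gave between 0 and 3 counts in a library, too few to be tested. Of the 12 tested genes of hormone transport and metabolism 1 fell, Nr3c2, and the other 11 did not pass, beside 8.07% of all tested genes called lower; the median log2 fold change was -0.15.

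Fkbp5 (gene ID 14229) encodes FKBP51, a co-chaperone that lowers hormone binding by the receptor and is itself among the genes most sensitive to glucocorticoid. The Ctrl values were 23.7, 29.8 and 29.7 CPM and the labelled iKO values 128, 134 and 126 CPM. All 3 livers labelled iKO sat close together, far above the highest Ctrl liver. The mean went from 27.7 ± 3.51 to 129 ± 4.23 CPM (SD, n = 3 each). It had a log2 fold change of 2.22 with a standard error of 0.17 (adjusted p = 0.00021), or 4.66-fold (95% interval 3.58 to 6.05). By p-value it ranked 11 of 13160. The call held in all 6 fits that left out 1 liver, with a term for Y-linked reads (2.45, adjusted p = 0.00596) and after the length correction (2.41). Its expected counts were whole in all 6 libraries.

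The counterpart of FKBP51 on the receptor is FKBP52, the product of Fkbp4, which favours hormone binding. Fkbp4 was at 137, 148 and 200 CPM in the Ctrl group and at 194, 124 and 135 CPM in the labelled iKO group, with a log2 fold change of -0.10 with a standard error of 0.23 (adjusted p = 0.794). Per unit of transcript length, the Fkbp5 to Fkbp4 ratio of TPM was 0.0971, 0.113 and 0.0833 in Ctrl and 0.370, 0.607 and 0.524 in those labelled iKO. Fkbp4 was the more abundant transcript in all 6 livers, and the ratio separated the groups without overlap (0.0977 ± 0.0147 against 0.50 ± 0.120, SD, n = 3 each).

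**Figure D2:**
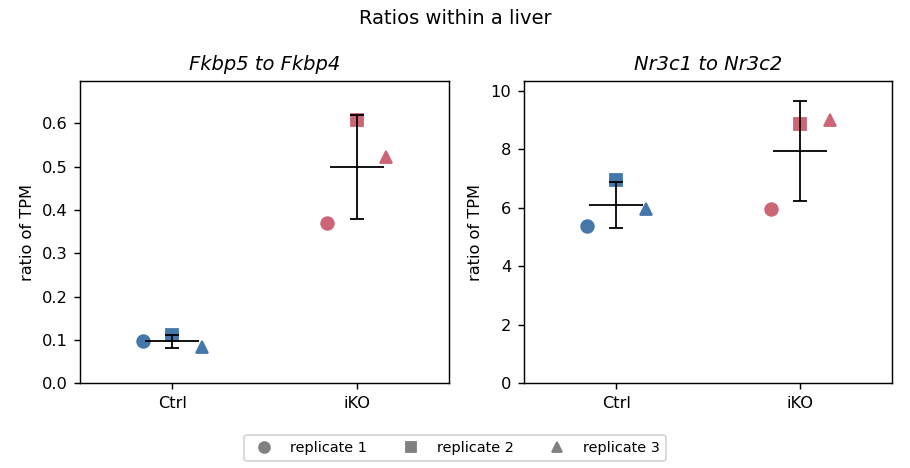
Ratio of TPM values (y axis, from 0, no unit) within each liver for Fkbp5 to Fkbp4 (left) and Nr3c1 to Nr3c2 (right); symbols are livers (blue Ctrl, red labelled iKO; circle, square and triangle for replicates 1, 2 and 3) and black lines the mean and SD of 3. The Fkbp5 to Fkbp4 ratio lies between 0.0833 and 0.113 in Ctrl and between 0.370 and 0.607 in those labelled iKO, while the Nr3c1 to Nr3c2 ratios overlap.

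Of 15 tested chaperone genes of the receptor 3 rose and 12 did not pass, beside 7.31% of all genes called higher, with a median log2 fold change of 0.34. Hspa8, the constitutive HSC70, went from 621 ± 83.3 CPM to 2097 ± 229 CPM (mean ± SD over n = 3 livers a group; adjusted p = 0.00250), Dnajb1, an HSP40, rose by 1.63 (SE 0.25) and Dnaja1, another, by 0.79 (SE 0.21) in log2 units. With the Y-linked reads as a term the Hspa8 call held (adjusted p = 0.0448) and that of Dnajb1 ended (0.0930). The Dnaja1 call held in 1 of the 6 fits that left out a liver (adjusted p up to 0.110, without Ctrl 3). The HSP90 genes themselves had log2 fold changes of 0.50 (Hsp90aa1, adjusted p = 0.160) and 0.44 (Hsp90ab1, adjusted p = 0.269).

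Zbtb16 (gene ID 235320) encodes PLZF, a zinc finger repressor strongly induced by glucocorticoid in many tissues. Its level was 15.3, 25.9 and 15.0 CPM in the Ctrl livers and 97.3, 91.7 and 60.2 CPM in the livers labelled iKO. The groups lay far apart, with iKO 3 the lowest of its group. The mean went from 18.8 ± 6.20 to 83.0 ± 20.0 CPM (SD, n = 3 each). It had a log2 fold change of 2.14 with a standard error of 0.27 (adjusted p = 0.00227), or 4.42-fold (95% interval 2.90 to 6.72). Its call held whichever liver was left out and with the Y-linked reads as a term (2.44, adjusted p = 0.0344). None of the 6 libraries gave it a whole expected count, so its level carries the doubt given for Nr3c1.

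Errfi1 (gene ID 74155) encodes MIG6, a feedback inhibitor of the EGF receptor. Levels in the Ctrl livers were 648, 669 and 682 CPM, and levels in those labelled iKO were 1377, 1472 and 1147 CPM. The Ctrl livers differed little and every liver labelled iKO was well above them. Between groups the log2 fold change was 1.00 with a standard error of 0.21 (adjusted p = 0.0167), or 2.00-fold (95% interval 1.44 to 2.79). The call ended without Ctrl 2 (adjusted p = 0.0830) or Ctrl 3 (0.0575), and with the Y-linked reads as a term at nearly the same size (1.04, adjusted p = 0.197).

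Klf9 (gene ID 16601) encodes a Krüppel-like factor that is both a receptor target and a gene under circadian control. Ctrl livers 1 to 3 held 102, 85.6 and 68.6 CPM and those labelled iKO held 187, 169 and 108 CPM. The groups did not overlap, but iKO 3 lay just above Ctrl 1. It had a log2 fold change of 0.86 with a standard error of 0.24 (adjusted p = 0.0428), or 1.81-fold (95% interval 1.24 to 2.64). The call ended without Ctrl 2 (adjusted p = 0.140), Ctrl 3 (0.122), iKO 1 (0.0884) or iKO 2 (0.0987), and with the Y-linked reads as a term (0.60, adjusted p = 0.417). Of its relatives, Klf13 rose by 1.11 log2 units (SE 0.21), Klf15 and Klf16 also rose, and Klf12 fell by 1.10 log2 units (SE 0.15). The relatives Klf2, Klf3, Klf4, Klf6, Klf10 and Klf11 did not pass.

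Dusp1 (gene ID 19252) encodes MKP-1, a phosphatase that switches off p38 and JNK kinases and carries part of the anti-inflammatory action of the hormone; stress kinases and cAMP induce it too. The Ctrl values were 35.0, 18.6 and 29.2 CPM and the labelled iKO values 190, 50.1 and 62.5 CPM. The groups did not overlap, and iKO 1 stood far above the other 5 livers. This gave a log2 fold change of 1.87 with a standard error of 0.56 (adjusted p = 0.0723), or 3.65-fold (95% interval 1.42 to 9.41), which did not pass. It passed without iKO 1 (1.03, adjusted p = 0.0422), without iKO 2 (2.23, 0.0427) and by DESeq2 (1.91, 0.0289). The relatives Dusp2, Dusp4, Dusp5, Dusp6, Dusp7, Dusp10 and Dusp16 did not pass. Of its family, Dusp8 rose by 2.63 log2 units (SE 0.38; adjusted p = 0.00341) from a low level, 1.11 ± 0.263 to 6.97 ± 3.11 CPM (SD, n = 3 each); the term for Y-linked reads gave an adjusted p of 0.0546.

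Tsc22d3 (gene ID 14605) encodes GILZ, a leucine zipper protein that blocks NF-kB and AP-1. Its level was 53.2, 70.6 and 67.7 CPM in the Ctrl livers and 62.8, 72.2 and 192 CPM in the livers labelled iKO. iKO 1 and iKO 2 lay in or beside the Ctrl range and iKO 3 alone was high. Between groups the log2 fold change was 0.77 with a standard error of 0.42 (adjusted p = 0.240), and 0.11 without iKO 3 (adjusted p = 0.754). In iKO 3, Dusp1, Klf9 and Zbtb16 were not the highest of their group, so the liver with the most Tsc22d3 was not the one with the most of these genes.

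Sgk1 (gene ID 20393) encodes a serum- and glucocorticoid-regulated kinase that acts on ion channels and FOXO factors. Levels in the Ctrl livers were 11.0, 20.3 and 20.6 CPM, and levels in those labelled iKO were 12.7, 9.22 and 9.91 CPM. Ctrl 1 lay inside the range of those labelled iKO, and Ctrl 2 and Ctrl 3 were near one level above it. It had a log2 fold change of -0.71 with a standard error of 0.25 (adjusted p = 0.0807), the opposite sign to Fkbp5 and Zbtb16. The 4 livers with Y-linked reads held 9.22 to 12.7 CPM and the other 2 held 20.3 and 20.6 CPM; with a term for those reads the log2 fold change was -0.06 (adjusted p = 0.918), and without Ctrl 1 it was -0.95 and passed (adjusted p = 0.0170). Its relative Sgk2 went from 54.1 ± 2.10 CPM to 23.7 ± 5.64 CPM (mean ± SD over n = 3 livers a group; adjusted p = 0.00553), a call that held whichever liver was left out and ended with the Y-linked reads as a term (0.0817).

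**Figure D3:**
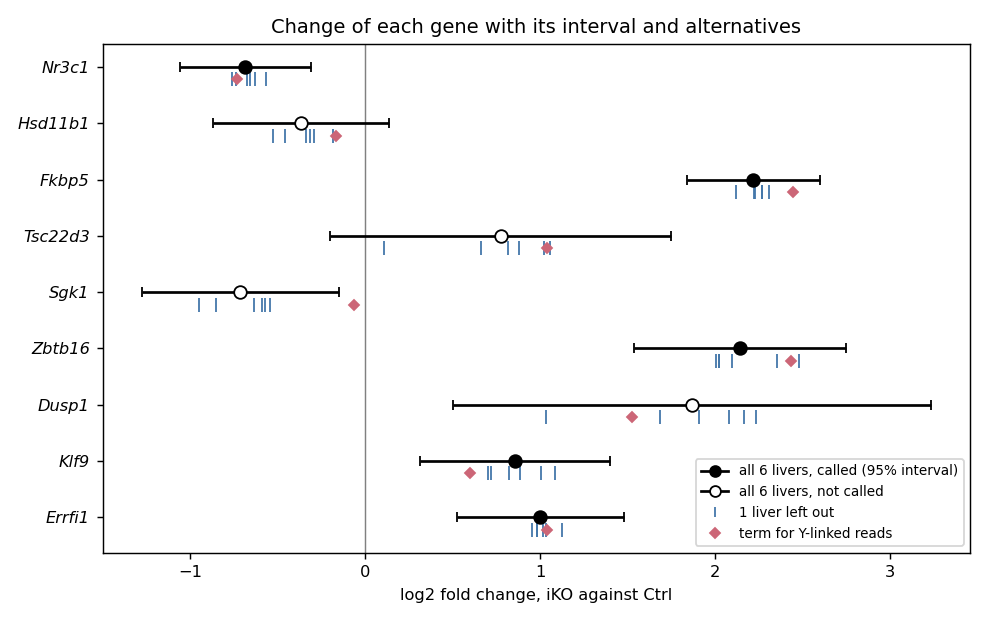
Log2 fold change of each gene, labelled iKO against Ctrl (x axis). Circles with bars give the value and 95% interval from all 6 livers (filled, called), blue ticks the 6 fits that leave out 1 liver, and red diamonds the fit with a term for Y-linked reads. Fkbp5 and Zbtb16 stay between 2.00 and 2.48 in these fits, the Tsc22d3 ticks reach down to 0.11, and the Sgk1 diamond lies at -0.06.

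Promoter sequence was examined because these genes share a regulator, while Sgk1 had a negative fold change that was not called. RefSeq promoters (build GRCm38.p6; the deposited values were made on mm9) were at hand for 7 of the 9 genes, 15 start sites in all. The 250 bases before each start were searched on both strands. The full palindromic glucocorticoid response element, AGAACA, any 3 bases and then TGTTCT, is in 3 of 32851 promoters (0.00913%), and 1 of the 3 belongs to Sgk1. Its single arm, AGAACA, is in 16.1% of promoters and in 4 of the 15 windows, from Sgk1 and Tsc22d3. A full element holds this arm on both strands and so counts for both motifs. The cAMP response element TGACGTCA (1.55% of promoters) is in 2 of the 15 windows, from Dusp1 and Errfi1. The E-box CACGTG, the site of clock factors such as BMAL1 (6.02%), is in 3 of the 15, from Dusp1, Fkbp5 and Sgk1. The D-box TTATGTAA (0.819%) was not matched in the 15. The Sgk1 and Fkbp5 stretches are printed because the genes differ in this element and in the sign of their fold change. The full element is in 1 of the 6 Sgk1 windows, and Sgk1 was not called and had a negative fold change. Fkbp5 has 1 window, which holds none, and rose 4.66-fold. Receptor sites of Fkbp5 are known to lie far from its start. Sites outside the windows were not searched, and a link of the element to direction was not tested. Dusp1 and Errfi1 are printed for the cAMP element that both share. Capitals mark the response element in Sgk1 (chr10:21993640-21993889, plus strand), the E-box in Fkbp5 (chr17:28486150-28486399, minus strand), the cAMP element followed by an E-box in Dusp1 (chr17:26508520-26508722, minus strand) and the cAMP element in Errfi1 (chr4:150854820-150855069, plus strand). A match is a description of letters and not a bound site.
Sgk1: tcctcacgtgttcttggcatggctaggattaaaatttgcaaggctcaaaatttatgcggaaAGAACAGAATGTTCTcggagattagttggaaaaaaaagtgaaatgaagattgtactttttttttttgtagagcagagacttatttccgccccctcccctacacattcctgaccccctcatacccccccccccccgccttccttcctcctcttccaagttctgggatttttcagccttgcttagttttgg
Fkbp5: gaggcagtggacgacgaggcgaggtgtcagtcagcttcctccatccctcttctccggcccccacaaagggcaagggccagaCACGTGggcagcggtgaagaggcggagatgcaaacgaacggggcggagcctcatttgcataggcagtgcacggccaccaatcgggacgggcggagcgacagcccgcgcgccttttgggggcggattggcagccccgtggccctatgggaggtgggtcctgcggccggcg
Dusp1: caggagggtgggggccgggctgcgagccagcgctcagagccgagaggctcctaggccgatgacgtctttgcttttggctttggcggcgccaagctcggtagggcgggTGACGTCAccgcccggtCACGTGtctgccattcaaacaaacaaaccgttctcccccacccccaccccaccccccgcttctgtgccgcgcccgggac
Errfi1: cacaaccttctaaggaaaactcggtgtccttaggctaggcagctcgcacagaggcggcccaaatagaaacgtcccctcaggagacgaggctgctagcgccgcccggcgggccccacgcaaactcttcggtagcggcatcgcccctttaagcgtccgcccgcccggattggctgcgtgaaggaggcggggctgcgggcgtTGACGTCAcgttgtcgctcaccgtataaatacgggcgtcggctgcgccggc

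Per unit of transcript length the 9 genes span a wide range. In the Ctrl livers Hsd11b1 was the most abundant at 683 ± 151 TPM, followed by Errfi1 at 414 ± 64.1 TPM (SD, n = 3), and their values did not overlap. Tsc22d3 (50.2 ± 13.9), Klf9 (35.7 ± 6.71), Dusp1 (26.4 ± 4.73) and Nr3c1 (23.2 ± 3.80 TPM) came next, each overlapping its neighbour, and Nr3c1 did not overlap Sgk1. Sgk1 (13.7 ± 5.58) and Fkbp5 (13.6 ± 3.37 TPM) overlapped each other, and Zbtb16 was lowest at 4.75 ± 2.25 TPM, below every value of Fkbp5. In the livers labelled iKO, Errfi1 (664 ± 149 TPM) stood above Hsd11b1 (413 ± 65.8 TPM) with no overlap, Fkbp5 reached 50.7 ± 11.3 TPM, and Zbtb16 (16.1 ± 3.54), Nr3c1 (11.9 ± 3.95) and Sgk1 (6.45 ± 0.540 TPM) were the lowest (SD, n = 3 each), with Zbtb16 and Nr3c1 overlapping.

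A wider list of 36 other glucocorticoid-induced genes, all tested, held 19 called higher and 1 called lower, with 16 that did not pass. Over all tested genes 7.31% were called higher and 8.07% lower. The list had a median log2 fold change of 1.51, against -0.02 over all tested genes. It was chosen with earlier results of these data known, so these shares describe the list and are not a test of it. The largest rises were Mt2 at 4.25 (SE 0.96), Lpin1 at 4.12 (SE 0.41), Mt1 at 4.08 (SE 0.80) and Gadd45g at 3.55 (SE 0.58), in log2 units. Lpin1, a phosphatidic acid phosphatase, held 35.2, 37.9 and 80.9 CPM in the Ctrl group and 1184, 877 and 607 CPM in the labelled iKO group. The metallothionein Mt1 was at 28.4, 112 and 132 CPM in the Ctrl group and at 2887, 846 and 853 CPM in the labelled iKO group, with iKO 1 the highest. With a term for Y-linked reads 8 of the list were called higher, and leaving out 1 liver gave 14 (without Ctrl 2) to 19 (without Ctrl 1).

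**Figure D4:**
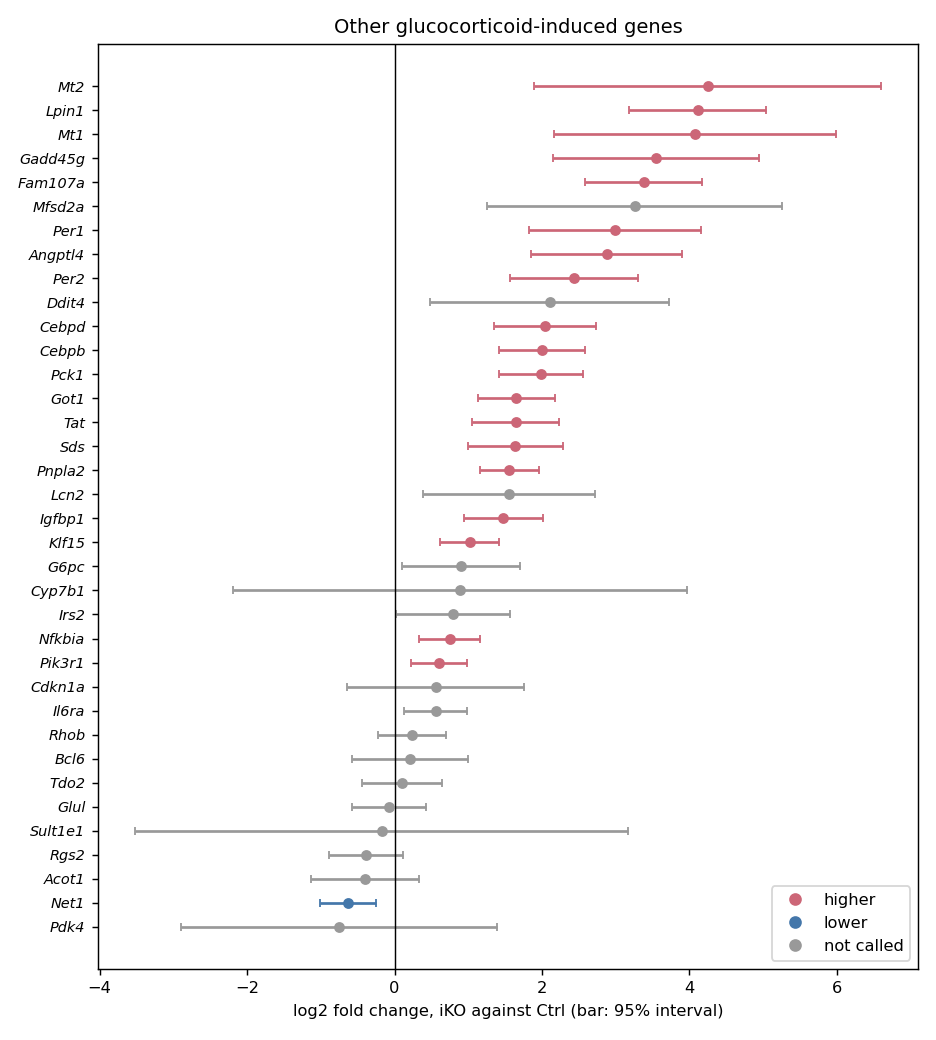
Log2 fold change, labelled iKO against Ctrl (x axis), with 95% interval, for 36 other genes known to be induced by glucocorticoid; red called higher, blue called lower, grey not called. The list runs from Mt2 at 4.25 to Pdk4 at -0.75, with a wide interval for Cyp7b1 and Sult1e1.

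Classic hepatic targets of the hormone were among the rises. Tat, tyrosine aminotransferase, the textbook receptor target in liver, held 867, 863 and 1302 CPM in the Ctrl group and 3605, 2697 and 3173 CPM in the labelled iKO group (log2 fold change 1.64, SE 0.26, adjusted p = 0.00571). Pck1, which makes the gluconeogenic enzyme PEPCK, went from 891 ± 151 CPM to 3535 ± 586 CPM (mean ± SD over n = 3 livers a group; adjusted p = 0.00218). The amino acid enzymes Sds and Got1 rose by 1.64 (SE 0.29) and 1.65 (SE 0.24), and the transcription factors Cebpb, Cebpd and Klf15 by 2.00 (SE 0.26), 2.04 (SE 0.31) and 1.02 (SE 0.18) in log2 units. All 7 calls held whichever liver was left out. The term for Y-linked reads kept the calls of Got1 (adjusted p = 0.0194) and Sds (0.0199) and ended those of Pck1 (0.0564), Cebpb (0.0797), Tat (0.0817), Klf15 (0.0835) and Cebpd (0.0998). Pck1 and Cebpd had fractional expected counts in each of the 6 libraries.

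The called genes of the list also had other roles. Angptl4, an inhibitor of lipoprotein lipase, rose by 2.88 (SE 0.44), Pnpla2, the triglyceride lipase ATGL, by 1.55 (SE 0.18) and Igfbp1, an IGF-binding protein that insulin represses, by 1.47 (SE 0.24) in log2 units. Pik3r1, a PI3-kinase subunit, rose by 0.61 (SE 0.17) and Nfkbia, the NF-kB inhibitor, by 0.75 (SE 0.18). Fam107a rose by 3.38 (SE 0.36) from 0.607 ± 0.178 CPM (SD, n = 3). Net1, a guanine nucleotide exchange factor, fell by 0.63 (SE 0.17, adjusted p = 0.0369), a call that ended in each fit that left out 1 liver (adjusted p up to 0.132, without iKO 3). With the Y-linked reads as a term Angptl4 (adjusted p = 0.0383) and Fam107a (0.0351) were called, and Pnpla2 (0.0516), Igfbp1 (0.10) and Nfkbia (0.176) were not. The Pik3r1 call held in 1 of those 6 fits, the Nfkbia call in 2, that of Mt2 in 1, and those of Mt1 and Gadd45g in 4.

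Of the 16 genes of the list that did not pass, 4 had groups that did not overlap, all higher. Over all tested genes, called or not, this was so in 19.8%. Mfsd2a, a lysophospholipid transporter, was at 2.34, 22.2 and 19.7 CPM in Ctrl and 168, 125 and 132 CPM in the livers labelled iKO, with a log2 fold change of 3.26 (95% interval 1.26 to 5.26) just outside the threshold (adjusted p = 0.0504). Lcn2, the acute phase protein lipocalin 2, Il6ra, a receptor chain for interleukin 6, and Irs2, an insulin receptor substrate, had log2 fold changes of 1.55, 0.56 and 0.80 (adjusted p = 0.0741, 0.0721 and 0.141). In the other 12 the groups overlapped. Tdo2, a tryptophan-degrading liver enzyme, had a log2 fold change of 0.10 with a standard error of 0.24 (adjusted p = 0.811), Glul, glutamine synthetase, of -0.08 (SE 0.22, adjusted p = 0.835), and Cdkn1a, the p21 gene, of 0.56 (SE 0.50, adjusted p = 0.481). Ddit4, a stress-induced inhibitor of mTORC1, was at 39.0, 6.75 and 37.4 CPM in the livers labelled iKO against 5.31 to 7.88 CPM in Ctrl (adjusted p = 0.0831), with iKO 2 inside the Ctrl range. G6pc, the last enzyme of glucose release, was at 130 to 355 CPM in Ctrl and 349 to 574 CPM in those labelled iKO (adjusted p = 0.110).

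The iKO 1 library was the highest of the 6 in 13 of the 19 induced genes called higher (68.4%), beside 61.3% of all genes called higher and 25.5% of all tested genes. Without iKO 1, 16 of the 36 were called higher, and the median was 1.34.

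Many clock genes also differed between the groups. Per1 and Per2, circadian repressors that the receptor also induces, were on the list and rose by 2.99 (SE 0.49) and 2.43 (SE 0.38) in log2 units; leaving out iKO 1 ended the call of Per1 (0.0547 as adjusted p), and the Y-linked term ended that of Per2 (0.0802). Dbp, a clock output gene, was at 0.797, 1.24 and 2.27 CPM in the Ctrl group and at 99.8, 141 and 144 CPM in the labelled iKO group, and Arntl, which encodes BMAL1, at 31.3, 32.4 and 30.5 CPM and at 3.86, 2.63 and 1.56 CPM. Of 21 tested clock genes 11 rose and 3 fell, beside 7.31% of all tested genes called higher and 8.07% called lower. The labels give no hour of collection, and the part of time of day in the values of Fkbp5, Klf9, Tat and the other induced genes was not tested.

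A list of receptor coregulators and other transcription factors, among them Nfkb1, Stat5a, Stat5b, Hnf4a and Foxa2, split in direction. Of 23 tested, 3 rose, 6 fell and 14 did not pass, beside the same 7.31% and 8.07% over all genes, with a median log2 fold change of -0.06. Nrip1, a corepressor, fell by 1.05 (SE 0.20), Ncoa2, the coactivator GRIP1, by 0.66 (SE 0.17), and Stat5a and Stat5b, partners of the receptor in hepatocytes, by 0.66 (SE 0.16) and 0.77 (SE 0.18) in log2 units. Nfkb1 and Arid1a also fell, and Hexim1, Hnf4a and Crebbp rose, by 0.69 (SE 0.14), 0.79 (SE 0.22) and 0.63 (SE 0.18). Each of these 9 calls ended without Ctrl 2 (adjusted p from 0.0637 for Nrip1 to 0.213 for Nfkb1), and with the Y-linked reads as a term their adjusted p ran from 0.103 for Nrip1 to 0.420 for Crebbp.

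Inflammatory genes that the receptor is known to repress were in part too low to test: 12 of 20 had enough reads, and Il6 gave at most 1 count in a library. Of the 12, 2 fell, beside 8.07% of all tested genes called lower. Irf1, an interferon response factor, was at 42.7, 45.6 and 49.6 CPM in Ctrl and fell to 16.5, 23.5 and 25.9 CPM (adjusted p = 0.00827), and Il1a, an interleukin, from 3.88 ± 0.643 to 1.63 ± 0.157 CPM (adjusted p = 0.0200). With the Y-linked reads as a term both calls ended (adjusted p = 0.129 and 0.123). The Irf1 call held whichever liver was left out, and the Il1a call ended without Ctrl 2 (adjusted p = 0.108) among others. The other 10, with Tnf, Il1b, Ccl2 and Icam1 among them, did not pass, and the list had a median log2 fold change of -0.09. Some macrophage and neutrophil markers were also lower in the livers labelled iKO, and the part of such cells in the Irf1 and Il1a values was not tested.

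Relatives of the 9 genes were listed as well. This list shares Klf15 with the induced genes, Nr3c2 with the hormone genes and Fkbp4 with the chaperones. Those genes are counted in both lists, so the relatives are not a separate set. Of 40 tested, 7 rose, 4 fell and 29 did not pass, where 7.31% of all genes were called higher and 8.07% lower, with a median log2 fold change of 0.25. Tsc22d1, Tsc22d2 and Tsc22d4 did not pass (adjusted p from 0.0729 to 0.175), nor did Sgk3 (0.416). Among FK506-binding proteins, Fkbp11 of the endoplasmic reticulum rose by 1.16 (SE 0.27) and Fkbp9 fell by 0.61 (SE 0.16) in log2 units, calls that held in 2 and 1 of the 6 fits that left out a liver (adjusted p up to 0.0631 and 0.149). The Zbtb20 rise of 1.86 (SE 0.33) ended without Ctrl 2 (adjusted p = 0.0581).

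The genes whose pattern over the 6 libraries was nearest to a given gene were found by the root mean square difference of centred log2 CPM among 9274 named genes. Nearest to Nr3c1 were Fbh1 (0.0404), Kif16b (0.0449) and Abcc2 (0.0609). Among the 3 nearest to Fkbp5 were Isyna1 (0.168) and St3gal5 (0.179), and nearest to Tsc22d3 were Relb (0.162), Tmc4 (0.221) and Fut11 (0.227). Relb, which like Tsc22d3 was highest in iKO 3, was at 3.61, 4.35 and 4.74 CPM and at 3.26, 4.66 and 10.6 CPM.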

How the data were processed

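The submitters' processing notes name HISAT2 2.0.4, Bowtie2 2.2.5, RSEM 1.2.12 and build mm9; no source used here gives the strand setting. The authors deposited 1 table of expected counts, FPKM and TPM. The deposited expected counts were rounded and passed to edgeR 4.0.16 under R 4.3.3, with filterByExpr, TMM factors and a robust quasi-likelihood test, and p was adjusted by Benjamini-Hochberg over 13160 genes. SE is the fold change in log2 units divided by the root of F. The deposited FPKM and TPM values keep shifts from abundant genes; they served for ratios, for the order of levels and for limma 3.58.1 fits of log2(FPKM + 1), log2(FPKM + 0.1) and log2(TPM + 1). DESeq2 1.42.0 was an alternative. Y-linked reads were counted as present where Ddx3y plus Kdm5d exceeded 10 counts. The length correction used a lowess trend (span 0.3) as offset. Whole means within 0.001.

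The 9 genes and all lists were chosen with earlier results of these data known. Named genes are the 9, Nek7, Y-linked and clock readouts, called list members, the 3 nearest genes to Nr3c1, Fkbp5 and Tsc22d3 (mean at least 5 CPM), and some not called, chosen after their values were seen; a few genes under this rule are not reported here. The fit was tested on simulated data. Counting error at this depth is below the spread between livers for the 9 genes.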

Additional observations from a re-analysis of the deposited data

How the results depend on the processing

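Each of the 9 genes kept the sign of its log2 fold change in 18 alternatives, 162 values in all, of which 133 stayed on the same side of the threshold, 22 lost a call and 7 gained one. Fkbp5 and Zbtb16 were called in every alternative. Of the 5 genes called, 2 were called with a term for Y-linked reads and 2 in the 4 livers with such reads, where Ctrl 1 is the only Ctrl liver and is assumed to vary like the others. In both fits the adjusted p of Nr3c1 missed the threshold (0.193 and 0.318), as it did with the length correction (0.0885); DESeq2 gave 0.00589. In these 3 fits edgeR called 0 of the 9 genes lower, against 1, 1 and 3 at an unadjusted p under 0.05 and 1 called by DESeq2 on all 6 livers, and limma on log2(TPM + 1) called 2 (Nr3c1 and Hsd11b1). Leaving out 1 liver gave 2 to 5 called genes, 2 to 4 higher and 0 to 1 lower. Over all genes it gave 491 (without Ctrl 2) to 1840 (without Ctrl 1) calls, 228 to 922 higher and 263 to 1096 lower. The Y-linked term gave 184 calls over all genes, 78 higher and 106 lower, and the 4 livers gave 143, 66 higher and 77 lower. The log2(TPM + 1) fit gave 1277 calls, 219 higher, and the log2(FPKM + 1) and log2(FPKM + 0.1) fits 421 and 427 higher. The medians of all genes in these 3 fits were -0.24, -0.12 and -0.20, against -0.02 with TMM. The causes were not tested. With the replicate number as a block, 6 of the 9 genes were called, Dusp1 being added (adjusted p = 0.0125), and 1710 over all genes. Deviations of same-numbered livers correlated across genes at 0.18, 0.29 and 0.02, and not every liver was nearest to its own number, so the numbers were not taken as pairs. List counts under these alternatives were added after seeing the data.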
